A study of Rattus norvegicus with 9 samples.

Results

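Drd2 encodes the dopamine D2 receptor, and its DNA methylation signal was followed at 2 array probes in N27 cells, a rat dopaminergic neural line, without and with manganese (Mn) or MPP+. The probes were found by the RefSeq accession that the scanner output pairs with each spot and were kept because their identifier occurs at 10 spots on every array. Drd2 is thus 1 gene of 15507 with a named probe and of 1178 with a 10-spot probe, its probes are 2 of 1390 with 10 spots and of 30367 in all, and it had no other probe. Drd2 was chosen by its single-spot ratios in the authors' deposited table, which were known beforehand, so its group values are given as a description with no test. Probe 1 is A_42_P625922 and probe 2 is A_44_P121351.

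The D2 receptor couples to inhibitory G proteins and lowers cyclic AMP. On dopaminergic neurons it acts as an autoreceptor that restrains firing and dopamine release, and on striatal neurons it is the target of antipsychotic drugs and of dopamine agonists used in Parkinson disease. Methylation of cytosine in CG dinucleotides is a chemical mark of DNA that is commonly associated with silenced promoters. MPP+, the toxic metabolite of MPTP, enters dopaminergic neurons through the dopamine transporter and blocks mitochondrial complex I, and excess manganese causes a parkinsonian syndrome.

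All groups were of the N27 line: untreated cells in standard medium (control), cells given Mn and cells given MPP+, the toxicants at sublethal doses per the labels. Each group had 3 arrays, described as independent biological replicates, and neither dose nor exposure time is given in the sources used here. N27 is a single immortalised line, and the arrays read DNA rather than transcripts, so its dopaminergic markers could not be checked here. Sheared, heat-denatured DNA was hybridised to a rat expression array, whose spots then glowed with Cy3 where an antibody to 5-methylcytosine had bound.

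The scanner outputs of control replicate 3 and Mn replicate 3 held equal spot medians at 100% of spots. In the authors' deposited table the control replicate 3 column matched that array at 671 of 672 listed 10-spot probes, and the Mn replicate 3 column at 34 of 789 (4.31%). It was therefore used as control replicate 3, leaving 3 control, 2 Mn and 3 MPP+ arrays. Control arrays lay in array row 4 of their slides, Mn arrays in row 3 and MPP+ arrays in row 1, so group and row cannot be told apart.

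The probe sequences are not in the files used here, so the place of either probe within the gene is unknown. The 300 bases around the Drd2 start site are shown because CG dinucleotides, in capitals, are the sites where methylation would lie in its promoter. RefSeq places this window at chr8:58605153-58605452 of GRCr8, on the plus strand, from 250 bases before the start to 50 after it. Whether DNA carrying it was on the spots is unknown.

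Drd2 promoter: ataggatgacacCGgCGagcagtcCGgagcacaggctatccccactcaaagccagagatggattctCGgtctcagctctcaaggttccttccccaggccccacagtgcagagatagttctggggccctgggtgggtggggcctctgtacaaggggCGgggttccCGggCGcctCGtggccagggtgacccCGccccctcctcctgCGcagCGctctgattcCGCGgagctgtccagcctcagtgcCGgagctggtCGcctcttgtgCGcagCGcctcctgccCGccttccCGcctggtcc

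The window held 19 CG dinucleotides and 67.3% G or C. The median over 33469 rat promoter windows of the same length was 7 CG dinucleotides, and 25.7% of them held at least as many as Drd2. CG reads the same on both strands, and 94.5% of the windows held at least 1.

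The level of a probe on an array was taken as the mean over its 10 spots of log2(spot median / local background median), where 0 means a spot no brighter than its surroundings. On the same scale blank spots, designed to capture no DNA, averaged above 0 on every array. Their means were 0.21, 0.16 and 0.12 in control and 0.18 and 0.15 in Mn. In MPP+ they were 0.17, 0.14 and 0.13. A level near these values is thus also read at spots without a gene probe. At probe 1 the control arrays read 0.18 ± 0.10, 0.76 ± 0.54 and 0.25 ± 0.10 (SE over 10 spots, replicates 1 to 3). The Mn arrays read 0.078 ± 0.15 and -0.079 ± 0.15, and the MPP+ arrays 0.061 ± 0.18, 0.14 ± 0.12 and 0.10 ± 0.11. Every control array thus lay above every Mn and every MPP+ array, as at 2.16% of the 1390 10-spot probes, a share from which nothing is read since the gene was chosen on these groups. With each array centred on its median this no longer held at probe 1 (1.44% of probes). Control replicate 2 stood apart from the other controls with the widest error of the 8 arrays. The control mean was 0.40 ± 0.32 (SD, n = 3), the Mn mean -0.00044 ± 0.11 (SD, n = 2) and the MPP+ mean 0.10 ± 0.040 (SD, n = 3).

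At probe 2 the control arrays read 0.37 ± 0.16, 0.10 ± 0.18 and 0.050 ± 0.086 (SE over 10 spots). The Mn arrays read 0.18 ± 0.16 and 0.53 ± 0.28, and the MPP+ arrays 0.21 ± 0.14, 0.12 ± 0.080 and 0.015 ± 0.14. Here the 3 groups overlapped, the highest array was Mn replicate 2, and the lowest was MPP+ replicate 3. The control mean was 0.17 ± 0.17 (SD, n = 3), the Mn mean 0.36 ± 0.25 (SD, n = 2) and the MPP+ mean 0.11 ± 0.096 (SD, n = 3). The 2 probes placed the groups in different orders: control, MPP+ and Mn from high to low at probe 1, and Mn, control and MPP+ at probe 2. In these uncentred values Mn and MPP+ separated at neither probe.

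**Figure D1:**
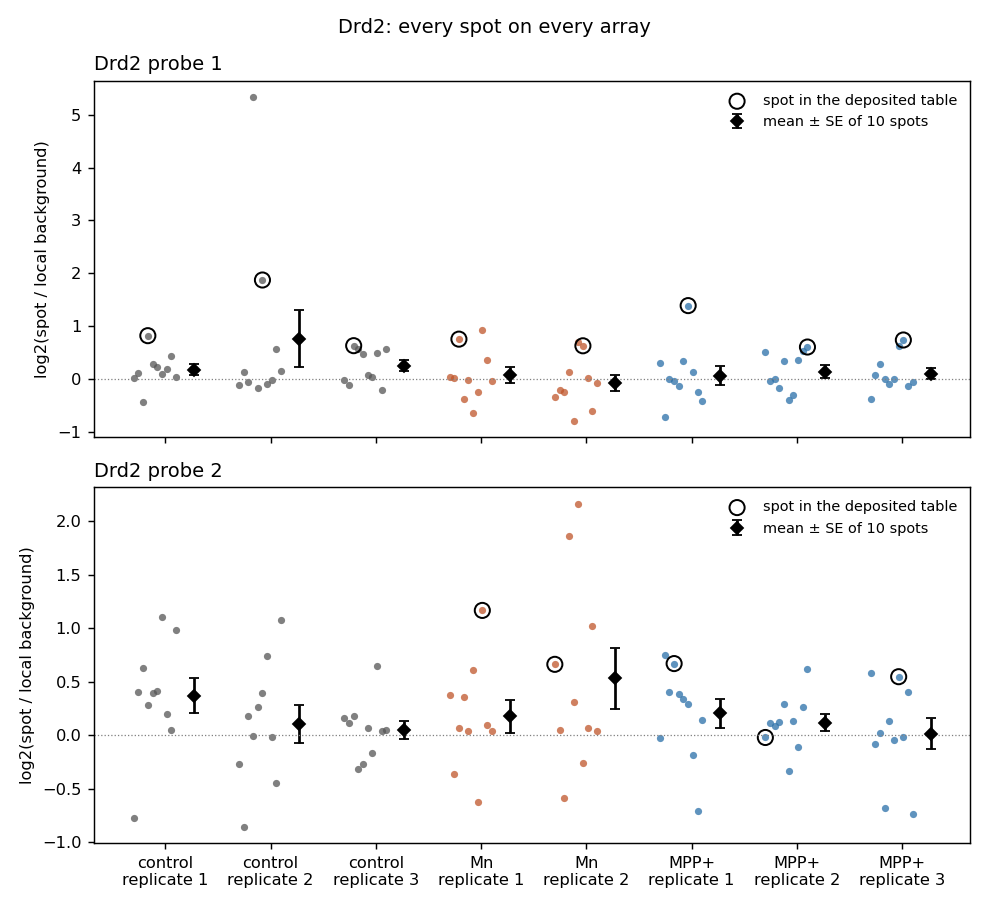
Each dot is 1 of the 10 spots of Drd2 probe 1 (top) or probe 2 (bottom) on 1 array, as log2 of spot median over local background median. Spots are coloured by group (control grey, Mn orange, MPP+ blue), diamonds with bars are the mean ± SE of 10 spots, and rings mark the spot that the authors' deposited table holds. A single control replicate 2 spot at 5.33 lies far above all others of probe 1, and most spots of both probes lie near 0.

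Averaged over both probes, the control mean of Drd2 was 0.29 ± 0.14 (SD, n = 3), the Mn mean 0.18 ± 0.071 (SD, n = 2) and the MPP+ mean 0.11 ± 0.042 (SD, n = 3). The array values ran from 0.15 to 0.43 in control, from 0.13 to 0.23 in Mn and from 0.060 to 0.13 in MPP+. Control replicate 2 was the highest array and MPP+ replicate 3 the lowest. Mn overlapped with both other groups, and every MPP+ array lay below every control array. The share of other probe pairs with such an order was not computed, so nothing is read from it.

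The high value of probe 1 on control replicate 2 rested on few spots. Its brightest spot had a median intensity of 4828 over a background of 120 (log2 5.33), and the next read 1.87, while the median of the 10 was 0.058. Only 5 of the 13900 spots of 10-spot gene probes on that array (0.0360%, itself included) were as bright relative to background. The 8 neighbouring spots on the grid read between -0.53 and 1.00 with a median of 0.069, so the brightness was limited to that spot. It carried quality code 3, which no source used here explains, and 0% of its pixels were saturated. The other 9 spots averaged 0.25 ± 0.22 (SE). At the same grid place probe 1 read 0.82 and 0.57 on control replicates 1 and 3, -0.38 and 0.14 on the Mn arrays, and -0.037, -0.17 and 0 on the MPP+ arrays.

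Few Drd2 spots stood clear of their surroundings. A spot was counted as above background where its median lay more than 2 SDs of the local background over that background's median. This held for 4 of the 160 Drd2 spots on the 8 arrays (2.50%, exact 95% interval 0.685 to 6.28, counting error only). Of these 4, 3 belonged to probe 1, with 2 on control replicate 2 and 1 on MPP+ replicate 1, and 1 to probe 2 on Mn replicate 2. All 4 carried quality code 3 and a spot diameter of 30, so no Drd2 spot of code 1 was above background. Over all 10-spot gene probes the share was 3.23% (3.13 to 3.34), and over blank spots (dark corners and negative controls, designed to capture no DNA) 2.91% (2.50 to 3.36). The share of Drd2 was thus not distinguishable from that of blank spots at this number of spots.

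The spread between replicate arrays was compared with the spread over the spots of an array. Within groups, after each array was centred on its median over the 10-spot probes, probe 1 varied between arrays with an SD of 0.22, and its 10-spot error alone corresponds to 0.23. For probe 2 the SDs were 0.16 and 0.16, and the median 10-spot probe had 0.16 and 0.17. The ratio of the first to the second was 0.941 at probe 1, 0.990 at probe 2 and 0.944 at the median probe. Without control replicate 2, which was left out after its values were seen, the SDs of probe 1 were 0.089 and 0.13 and those of probe 2 0.18 and 0.16. Both SDs of probe 1 thus rested largely on that array.

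Mn was compared with control to ask whether manganese moved the Drd2 signal. Probe 1 differed by -0.40 ± 0.17 (Mn minus control, log2, SE from the fit to all 10-spot probes) and probe 2 by 0.18 ± 0.16, in the opposite direction. Over the 1390 10-spot probes the differences had a median of 0.020 and an SD of 0.17, and 90% lay between -0.25 and 0.30. Probe 1 was among the lowest, with 8 probes (0.576%) below it, and 84.0% of probes lay below probe 2. limma called 0 of the 1390 probes at an adjusted p under 0.05 (0%), with 79 (5.68%) under an unadjusted 0.05, and 0 of 30367 when all gene probes were fitted. All Mn arrays lay below all control arrays at probe 1, which also held for 7.48% of the 10-spot probes. Centred on the array medians this still held at probe 1, as it did for 10.5% of probes.

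Without control replicate 2 the Mn difference of probe 1 was -0.22 ± 0.17, and with the median of the 10 spots in place of their mean it was -0.23 ± 0.14. Both lie inside the central range given above for all 10-spot probes (-0.25 to 0.30), which was computed with all arrays and spot means. The size of the Mn difference thus rests in part on that control array. The rank of probe 1 was not computed under these settings. The sign of probe 2 turned with the median of the 10 spots (-0.043 ± 0.15).

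MPP+ was compared with control in the same way, against the same control arrays. Probe 1 differed by -0.30 ± 0.15 (MPP+ minus control) and probe 2 by -0.062 ± 0.14. The differences of all 10-spot probes had a median of -0.026 and an SD of 0.14, with 90% between -0.25 and 0.20. Below probe 1 lay 28 probes (2.01%), and below probe 2 lay 38.0% of probes. limma called 0 of the 1390 probes (0%), with 45 (3.24%) under an unadjusted 0.05, and 0 of 30367 when all gene probes were fitted. The MPP+ arrays lay below the control arrays at probe 1, as at 5.40% of the 10-spot probes. With each array centred on its median the groups overlapped at probe 1, and 4.96% of probes were without overlap in that direction.

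Without control replicate 2 the MPP+ difference of probe 1 was -0.11 ± 0.15, and with the median of the 10 spots it was -0.11 ± 0.13. Both are under their SE, so the size of the MPP+ difference rests on that control array.

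**Figure D2:**
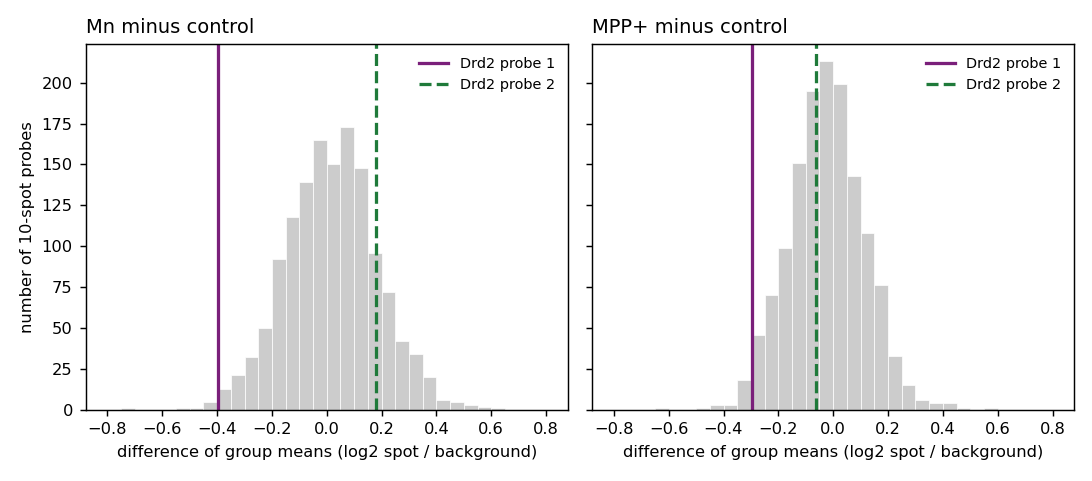
Histograms of the difference between group means, in log2 of spot over background, for the 1390 probes with 10 spots, with Mn minus control on the left and MPP+ minus control on the right (y axis, number of probes). Lines mark Drd2 probe 1 (solid) at -0.40 and -0.30 and probe 2 (dashed) at 0.18 and -0.062. Probe 1 lies in the lower tail of both and probe 2 within the bulk.

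Set directly against each other, Mn and MPP+ differed by -0.10 ± 0.17 at probe 1 and by 0.24 ± 0.16 at probe 2 (Mn minus MPP+). The SD over the 10-spot probes was 0.16, with 18.8% of probes below probe 1 and 88.2% below probe 2. limma called 0 of 1390 probes (0%), with 68 (4.89%) under an unadjusted 0.05, and 0 of 30367 when all gene probes were fitted. Centred on the array medians, both Mn arrays lay below the 3 MPP+ arrays at probe 1, as at 10.2% of probes. Uncentred, they overlapped.

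Both probes carry the accession of 1 gene, and whether they rose and fell together was asked over the 8 arrays. No such relation was detected: Pearson's r was -0.44 (exact permutation p = 0.175, two-sided) and Spearman's rho -0.55 (exact permutation p = 0.171, two-sided). With 8 arrays and signals near background, the test cannot show whether the probes agree or disagree. The relation of the 2 probes was the only one across arrays that was tested. Besides the 8 arrays and the 6 arrays named next, the test was run under 18 alternative settings. Their lowest exact permutation p was 0.0786, with arrays centred on their median. Without control replicate 2 and Mn replicate 2, the arrays farthest from the median of probe 1, r was -0.084 (n = 6, exact permutation p = 0.953), which is close to 0. Leaving out control replicate 2 alone gave -0.64 and leaving out Mn replicate 2 alone -0.18, so Mn replicate 2 was the array whose loss weakened it. Within the 6 arrays whose output has 1 channel, r was -0.57 (exact permutation p = 0.0917).

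Of the 1390 probes, 5 other genes also had a pair of 10-spot probes, and r over the 8 arrays ran from -0.25 at Kmt5b, a histone methyltransferase, to 0.59 at Mapk8, the stress kinase JNK. Desi2 stood at 0.32, Usp48, a deubiquitinase, at 0.25, and Enc1, an actin-binding protein of neurons, at 0.11. Drd2 had the lowest value of the 6 pairs. Over all 965355 pairs of 10-spot probes the median r was 0.080, 90% lay between -0.56 and 0.68, and 10.1% lay below the Drd2 pair. Between arrays, r over all 10-spot probes ran from -0.062 to 0.054 with a median of 0.0016 in 28 pairs of arrays, replicates of a group included. Over probes in general, the level on an array thus had almost no relation to the level on another.

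**Figure D3:**
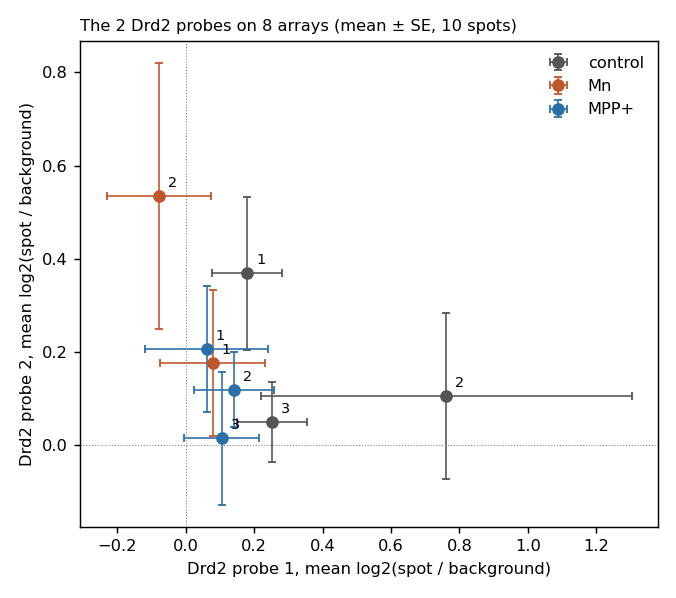
Mean log2 spot over background of Drd2 probe 1 (x axis) against probe 2 (y axis), 1 point per array with bars of ± SE over 10 spots, coloured by group and numbered by replicate. Control replicate 2, at 0.76 on probe 1, and Mn replicate 2, at 0.53 on probe 2, stand apart from the other 6 arrays, which lie between 0.061 and 0.25 on probe 1.

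The values for Drd2 in the authors' deposited table come from 1 spot per array, a signal to noise ratio of spot median over the SD of the local background. At probe 1 the authors' deposited table holds 2.12, 5.24 and 2.32 for control replicates 1 to 3, which rank 1, 2 and 1 among the ratios of the 10 spots (1 is the highest). For MPP+ it holds 5.11, 3.21 and 2.76, each the highest of its 10 spots. For Mn the authors' deposited table holds 1.31 and 1.71 for replicates 1 and 2, which rank 7 and 2. By this ratio, control and MPP+ were thus represented by their highest spots, apart from control replicate 2, and Mn replicate 1 by a spot of rank 7. The rank is not one of brightness over background. In log2 of spot over background, the deposited spots of control read 0.82, 1.87 and 0.63. Those of Mn read 0.76 and 0.63, and those of MPP+ 1.39, 0.61 and 0.74.

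Over all 10 spots the same ratio did not separate the groups. The array median of the 10 ratios at probe 1 averaged 1.41 ± 0.099 over the 3 control arrays (SD), 1.31 ± 0.19 over the 2 Mn arrays and 1.41 ± 0.22 over the 3 MPP+ arrays. At probe 2 it averaged 1.41 ± 0.028, 1.26 ± 0.28 and 1.41 ± 0.22. The means of the highest ratios were 5.28, 1.96 and 3.69 at probe 1 in control, Mn and MPP+, and 2.64, 4.81 and 3.76 at probe 2. Single arrays carried these means: the Mn value at probe 2 joins 2.74 and 6.87, and the control value at probe 1 joins 2.12, 11.4 and 2.32. Without Mn replicate 2, the highest Mn ratio at probe 2 lay below the MPP+ mean, and without control replicate 2, those of control at probe 1 lay below the MPP+ mean. The MPP+ mean at probe 2 in turn joins 2.57, 3.14 and 5.57. The last is a spot of MPP+ replicate 3 with a median of 12177 over a local background of 11957 (log2 0.026), hardly brighter than its surroundings.

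At probe 2 the authors' deposited table lists no control value. It holds 1.83 and 1.41 for Mn, which rank 2 and 6, and 1.16, 1.52 and 2.14 for MPP+, which rank 7, 8 and 3. The control arrays had ratios for this probe in their scanner output, with array medians of 1.45, 1.41 and 1.39 and highest spots of 2.73, 2.96 and 2.23. The spots held in the table lay at different grid places on the arrays of a group: spots 4, 6 and 3 in control, 3 and 7 in Mn and 7, 10 and 8 in MPP+ at probe 1, numbered down the grid.

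Over the table as a whole, deposited spots also came mostly from those of higher ratio, but Mn did not stand lower in rank there. Among the listed 10-spot probes, the deposited spot had the highest of 10 ratios in 30.6% to 50% of probes on the control arrays, 35.5% and 40.3% on the Mn arrays and 30.3% to 35.1% on the MPP+ arrays, and was among the upper 5 in 81.6% to 94.3%. All arrays of a group used the same grid place in 12 of 633 control probes (1.90%), 72 of 759 Mn probes (9.49%, 2 arrays) and 7 of 699 MPP+ probes (1.00%).

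**Figure D4:**
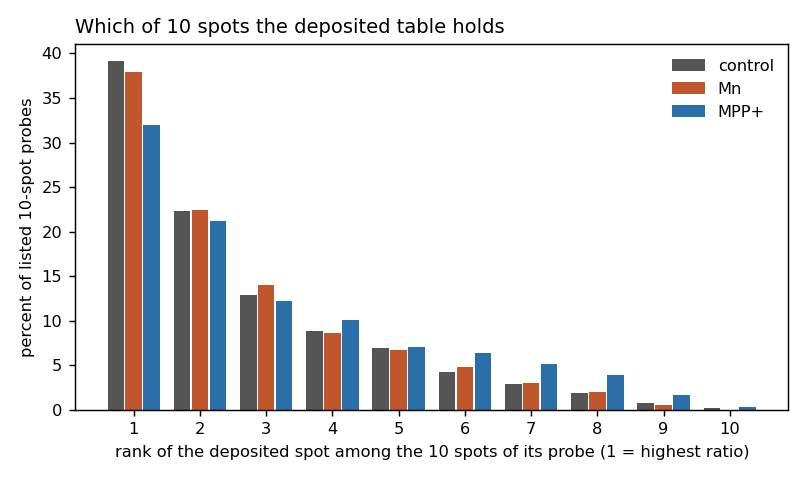
Rank of the deposited spot among the 10 spots of its probe (x axis, 1 is the highest signal to noise ratio) against the percent of listed 10-spot probes (y axis), with the arrays of a group pooled and bars coloured by group. The highest spot is the most frequent choice in all 3 groups. The Drd2 probe 1 spots rank 1, 2 and 1 in control, 7 and 2 in Mn and 1, 1 and 1 in MPP+.

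The other dopamine receptors, Drd1 and Drd5 of the class that raises cyclic AMP and Drd3 and Drd4 of the class of Drd2, had 1 probe each with 1 spot per array, so no spread over spots can be given. None of them exceeded background on any of the 8 arrays. Drd5 read 1.26, 0.96 and 0.34 on the control arrays, -0.37 and 0.11 on the Mn arrays, and 0.050, -0.23 and 0.52 on the MPP+ arrays. Its Mn difference of -0.98 ± 0.38 (SE) had an adjusted p of 0.829 in the limma fit of all gene probes. Drd1 differed by -0.0098 ± 0.34 in Mn and 0.54 ± 0.30 in MPP+, Drd3 by 0.27 ± 0.32 and 0.34 ± 0.29, and Drd4 by -0.41 ± 0.37 and 0.12 ± 0.33. Adjusted p was at least 0.908 for these 3 in Mn and was 0.999 for all 4 in MPP+ with limma.

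Of 51 genes listed for signalling from the D2 receptor, 50 had a probe and 8 a 10-spot probe, of which limma called 0 in either comparison with control. At 7 of the 8 the value was higher in Mn than in control and at 7 of 8 higher in MPP+, against 54.1% and 42.4% of all 10-spot probes, and both counts share the control arrays. Their median difference was 0.15 for Mn and 0.10 for MPP+, against 0.020 and -0.026 over all. Akt1, the kinase that D2 receptors restrain through beta-arrestin, read 0.12, 0.20 and 0.092 in control, 0.91 and 0.31 in Mn, and 0.65, 0.18 and 0.12 in MPP+. Its Mn arrays lay above the control arrays, as at 12.2% of the 10-spot probes, with a difference of 0.47 ± 0.18 (SE, adjusted p = 0.874 with limma).

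Gsk3b, a kinase downstream of Akt1, differed by 0.35 ± 0.16 in Mn and 0.12 ± 0.14 in MPP+, and Rgs4, which speeds the shut-off of inhibitory G proteins, by 0.25 ± 0.15 and 0.084 ± 0.14. Pde10a, a striatal phosphodiesterase, differed by 0.15 ± 0.18 and 0.17 ± 0.16, and Adcy8, an adenylyl cyclase, by 0.12 ± 0.16 and 0.20 ± 0.14. Adora2a, the adenosine receptor that opposes D2 signalling, stood at 0.040 ± 0.16 and -0.027 ± 0.15, and Prkar2b, a regulatory subunit of protein kinase A, at -0.067 ± 0.16 and 0.053 ± 0.14. Adjusted p was at least 0.874 for these 6 genes with limma.

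Among 99 other neurotransmitter receptors, 97 had a probe and 7 a 10-spot probe, of which limma called 0. Higher values in Mn than in control stood at 5 of the 7 and higher values in MPP+ at 3 of 7. Adra1d, an alpha-1 adrenergic receptor, resembled Drd2 probe 1 in sign, with -0.17 ± 0.16 in Mn and -0.21 ± 0.14 in MPP+, and read 0.47 on control replicate 2 against 0.083 and 0.095 on the other controls. The glutamate receptors Gria1, Gria4 and Grik4 ranged from -0.019 to 0.25 in Mn and from -0.025 to 0.24 in MPP+. Cnr1, the brain cannabinoid receptor, stood at 0.057 ± 0.16 and -0.17 ± 0.14, and Tacr1, the substance P receptor, at 0.14 ± 0.17 and 0.15 ± 0.15. Adjusted p was at least 0.967 for these 6 genes with limma. Foxa2, a transcription factor of midbrain dopaminergic neurons, stood at -0.099 ± 0.16 and -0.13 ± 0.15. None of 16 genes of dopamine synthesis, storage and breakdown had a 10-spot probe.

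The genes most like each Drd2 probe were taken as those with the highest r over the 8 arrays, with arrays centred on their median, among 1177 genes with a 10-spot probe. For probe 1 these were Mfap3, a protein of elastic microfibrils (r = 0.943), Ldaf1, of lipid droplet assembly (0.940), Cmtm8, a membrane protein (0.936), Psma5, a proteasome subunit (0.933), and Synj2, a phosphoinositide phosphatase (0.928). All 5 read highest on control replicate 2, and without that array their r ran from 0.723 to 0.859. For probe 2, 4 of the 5 were Cdk5, a neuronal kinase (0.934), Arhgap18, a GTPase-activating protein (0.913), Srp54a, of the signal recognition particle (0.910), and Pard6b, a polarity protein (0.904). These 4 read highest on Mn replicate 2, apart from Cdk5, which was highest on control replicate 1. No gene was in both sets, and the values are the highest of 1177 over 8 points that share arrays and background.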

How the data were processed

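Arrays were read with ScanArray software, per the series' design text, which names no version. The authors deposited 1 scanner output per array, with spot and local background intensity on a linear scale, the percent of saturated pixels and a signal to noise ratio per spot, per the file headers. They also deposited a value table whose ratio for a probe equals that of 1 spot, within a tolerance of 0.006. Accessions were matched without versions to RefSeq symbols (GRCr8): 1184 of 1390 10-spot probes had 1 symbol.

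Each spot was set to log2(median / background median) with no normalization between arrays, and each probe took the mean of its 10. A model with a mean for each group was fitted in limma 3.58.1 (R 4.3.3) to the 1390 probes of 8 arrays, with eBayes and Benjamini-Hochberg adjustment at 0.05. It was tested on simulated data. The remaining steps ran in python 3.11.15 with scipy 1.17.1, pandas 2.3.3 and numpy 2.4.6, and matplotlib 3.10.9 drew the plots. The number of arrays limits precision, and p-values measure the spread between these arrays, which the design text calls independent biological replicates. At the median 10-spot probe that spread was no larger than the 10-spot error alone gives (ratio 0.944).

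The gene, the lists and the tests were chosen with earlier results of these data known. Named genes are Drd2, the 5 genes most like each probe, list members with 10 spots and the other dopamine receptors, the last added after the values were seen. Some genes that this rule names are not reported here. Alternatives changed the spot summary, background correction, normalization, the shared array, blocks and the arrays used.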

Additional observations from a re-analysis of the deposited data

How the results depend on the processing

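Probe 1 stayed below 0 in 35 of 35 alternatives of its differences from control, which ran from -0.51 to -0.20 in Mn and from -0.40 to -0.11 in MPP+. The alternatives reuse the same arrays of a gene chosen on these groups, and some repeat a value. Leaving out the shared array, for example, is the same as leaving out control replicate 3. The count is therefore no separate support for a difference. Leaving out 1 array gave -0.51 to -0.22 and -0.40 to -0.11. Its difference between Mn and MPP+ turned to 0.020 with the spot mean. Probe 2 was less stable. With the median over spots its Mn difference was -0.043 from control and -0.0099 from MPP+, and with spots of quality code 1 alone, chosen after seeing the data, -0.12 and -0.14. Leaving out 1 array gave 0.0015 to 0.36 and 0.063 to 0.42, the lowest without Mn replicate 2 and the highest without Mn replicate 1. Its MPP+ difference from control turned to 0.052 with normexp, 0.035 without control replicate 1 and 0.021 with code 1 spots. The correlation of the probes turned to 0.32 with normexp and 0.26 with code 1 spots; elsewhere it ran from -0.64 to -0.069. The cause of these turns was not tested. With the shared array as Mn replicate 3, the Mn difference was -0.39 at probe 1 and 0.017 at probe 2. limma called 0 probes in every fit but those without Mn replicate 2, which called 2 in Mn against control and 2 in Mn against MPP+ on a single Mn array, assumed to vary like the other groups. Same-numbered arrays did not deviate together (r from -0.033 to 0.063 over probes, 7 pairs). This cannot show whether numbers pair samples, since arrays in general had almost no relation. The deviations of the 2 Mn arrays also mirror each other. Numbers were not taken to pair samples. A replicate block gave -0.43 in Mn and -0.30 in MPP+ at probe 1, and 0.12 and -0.062 at probe 2, with 0 calls, and a block for the scanner outputs of 1 and 2 channels gave the same values. Within outputs of 1 channel the differences were -0.47 and -0.37 at probe 1 and 0.12 and -0.075 at probe 2. The correlation was not run with a block, and using the shared array as Mn leaves it as it is. Signals near background limit every value here: 4 of 160 Drd2 spots exceeded it.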

Other observations

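The outputs of control replicate 3 and MPP+ replicate 3 hold a second channel, whose content the labels do not give. In it Drd2 probe 1 read 0.066 ± 0.15 and 0.34 ± 0.24 (log2 spot over background, SE over 10 spots) and probe 2 0.50 ± 0.38 and -0.041 ± 0.12, against medians of 0.063 and 0.040 for blank spots. None lay over 2 SE above the blanks. The Mn replicate 3 column of the authors' deposited table holds 1.07 at probe 1 and 1.94 at probe 2, and its array was not analysed here.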
